A study of Mus musculus with 16 samples.

Results

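The Krüppel-like factors (KLFs) are zinc finger transcription factors, and 10 of their genes were followed here in single mouse two-cell embryos that lacked or kept the maternal supply of the histone demethylase LSD1/KDM1A. The 10 genes, Klf2, Klf3, Klf4, Klf5, Klf6, Klf9, Klf10, Klf13, Klf16 and Klf17, were chosen by their symbols among 24063 genes listed, which hold 17 KLF genes in all. RNA was measured in 16 libraries, each made from 1 whole embryo: 8 control embryos (f/wt, Lsd1/Kdm1a flox/wt in the labels) and 8 maternal mutants (Δm/wt, Lsd1 mko/wt in the labels). Both kinds of mother were superovulated and homozygous for a floxed Kdm1a allele (Kdm1a f/f), and the fathers were wild-type B6D2F1 mice, so that every embryo had a wild-type paternal Kdm1a allele. The mothers of f/wt embryos carried no Cre and passed on an intact floxed allele. The mothers of Δm/wt embryos also carried Zp3-cre, a transgene whose Zp3 promoter is active in growing oocytes, and passed on an allele without its first exon. The cDNA was primed with oligo-dT and covers mainly the 3′ part of polyadenylated transcripts.

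KLFs share 3 zinc fingers at the carboxyl end that bind GC-rich boxes and CACCC elements, and differ in the rest of the protein, through which some recruit activators and others corepressors. In mouse embryonic stem cells Klf2, Klf4 and Klf5 act within the pluripotency network, and Klf4 is one of the classical reprogramming factors. Klf3 represses transcription by recruiting CtBP. Klf9 and Klf13 are close relatives that bind the corepressor Sin3a, and Klf17, first described in germ cells, is a more distant member of the family.

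The libraries held 3212510 to 9337451 gene reads in f/wt and 4049168 to 14334244 in Δm/wt. The libraries f/wt 2 and f/wt 3 differed by little more than sampling noise (a mean chi-square per gene of 1.89, against 45.6 to 366 in the other 55 pairs of a group) and were counted as 1 sample, f/wt 2+3, which leaves 7 f/wt and 8 Δm/wt samples. Levels are CPM, the counts of a gene relative to the library's reads of the 11344 genes tested. They were scaled by the trimmed mean of M values (TMM). The SD is over samples, and a fold change is Δm/wt over f/wt on the log2 scale with its standard error (SE). A gene was said to rise or fall where the p of edgeR's quasi-likelihood test, adjusted by the Benjamini-Hochberg method over 11344 genes, was under 0.05. By this rule 21.9% of all genes tested rose and 22.8% fell. A level is relative to the other polyadenylated RNA of a whole embryo and depends on the TMM scaling, so it is not a plain share. Less RNA in both cells and its absence from 1 of them cannot be told apart. A count of 0 allows 3 reads, or 0.207 to 0.744 CPM depending on the sample, and all such limits cover counting error only.

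Kdm1a itself was at 9.998 ± 6.00 CPM (SD, n = 7) among the controls and at 1.24 ± 1.47 CPM (n = 8) among the mutants. It fell by 2.99 ± 1.01 on the log2 scale (SE; edgeR adjusted p = 0.0211), although f/wt 6, with 8 reads and 0.991 CPM, lay within the range of the mutants. Reads outside the deleted exon and from the paternal allele are counted as well, and a part of the gene overlaps Luzp1 on the other strand. Without f/wt 6, the fold changes were -7.66 for Klf3, -4.90 for Klf4, -6.19 for Klf9 and 1.02 for Klf17, and each kept its call. The call of Kdm1a was lost with scaling to the summed reads of Hprt, Gapdh and Ppia (-1.89) and in embryos 4 to 8 alone (-3.79), which the read numbers given by the study set apart from embryos 1 to 3.

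Of the 10 genes, 9 had enough reads to be tested, and Klf5 did not. Klf3, Klf4 and Klf9 fell (33.3% of those tested, beside the 22.8% of all genes), Klf17 rose (11.1%, beside 21.9%), and 5 did not pass. All but Klf17 had a negative fold change, and the median of the 9 was -2.07, beside 0.04 over all genes tested. The sequences upstream of the 4 genes that passed are shown first.

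The 250 bases before the RefSeq start (GRCm38.p6, the build called mm10), 5′ to 3′ on the strand of the gene, are given with the core CACCC and its complement GGGTG in capitals. They lie at chr5:64803271-64803520 (+) for Klf3, chr4:55532476-55532725 (-) for Klf4, chr19:23140976-23141225 (+) for Klf9 and chr4:117765667-117765916 (-) for Klf17.
Klf3: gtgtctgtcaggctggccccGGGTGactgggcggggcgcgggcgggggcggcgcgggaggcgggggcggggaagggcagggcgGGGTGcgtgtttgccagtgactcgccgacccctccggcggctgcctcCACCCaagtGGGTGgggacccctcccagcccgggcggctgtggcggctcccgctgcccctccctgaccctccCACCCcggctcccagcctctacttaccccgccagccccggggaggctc
Klf4: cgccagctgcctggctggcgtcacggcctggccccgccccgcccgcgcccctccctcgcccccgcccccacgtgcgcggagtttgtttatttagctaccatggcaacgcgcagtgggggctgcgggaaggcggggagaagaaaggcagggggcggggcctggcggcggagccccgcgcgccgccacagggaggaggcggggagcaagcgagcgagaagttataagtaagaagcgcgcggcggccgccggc
Klf9: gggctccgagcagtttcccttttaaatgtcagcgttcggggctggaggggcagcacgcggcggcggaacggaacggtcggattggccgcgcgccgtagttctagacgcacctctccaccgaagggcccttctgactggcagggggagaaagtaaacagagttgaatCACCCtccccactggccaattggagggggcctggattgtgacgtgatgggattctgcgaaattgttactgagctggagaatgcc
Klf17: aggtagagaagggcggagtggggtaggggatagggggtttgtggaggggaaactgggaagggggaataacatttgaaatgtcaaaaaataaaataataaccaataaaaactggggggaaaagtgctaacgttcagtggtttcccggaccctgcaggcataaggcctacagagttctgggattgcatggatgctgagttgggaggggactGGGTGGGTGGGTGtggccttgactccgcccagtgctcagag

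CACCC, searched on both strands, was found 5 times upstream of Klf3, 3 times upstream of Klf17 in a row of overlapping repeats, and 1 time upstream of Klf9, and it was not found upstream of Klf4. It is held by 52.0% of the 32851 mouse promoters of this length. The GC box core GGGCGG, held by 32.7%, was found 6 times at Klf3, 4 times at Klf4, 2 times at Klf17 and 0 times at Klf9. Base composition set Klf17 apart from the others. Its window had 4 CpG dinucleotides and 52.0% G and C, close to the medians of all promoters, 6 and 52.4%. The windows of Klf3, Klf4 and Klf9 had 23, 32 and 18 CpGs and 78.4%, 74.0% and 59.6% G and C. Promoters were matched for 7 of the 10 genes. Those of Klf2, Klf6 and Klf13, whose genes did not pass the test, had 29, 21 and 24 CpGs. A match of letters is a description and does not show that a factor binds there.

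Klf3 (chromosome 5, 64803523 to 64830129, plus strand, 6 exons) had the largest fall of the 10 genes. Its level in f/wt was 0.210 CPM at the lowest, 45.1 at the median and 178 at the highest (67.0 ± 59.6, SD, n = 7). In Δm/wt these values were 0, 0.232 and 0.503 CPM (0.237 ± 0.193, n = 8). The control embryos held 4313 reads together and the 8 mutants 12, with no more than 4 in any 1 of them. Klf3 fell by 8.13 ± 1.06 on the log2 scale (SE; edgeR adjusted p = 7.87e-06), the fall ranking 40 among all genes tested. The groups overlapped through 1 embryo: f/wt 7 held 2 reads of Klf3, as few as the mutants, while the other 6 f/wt samples were at 28.8 to 178 CPM. Without f/wt 7 the fold change was -8.36 (edgeR adjusted p = 1.54e-06). The annotation of GENCODE M21 places the 3′ end 2.77 kb beyond that of the files, and reads beyond the counted end are missing from both groups.

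Klf9 (chromosome 19, 23141226 to 23166911, plus strand, 2 exons), a gene that responds to glucocorticoid and thyroid hormone in other tissues, was at 5.51, 33.9 and 84.1 CPM in f/wt (lowest, median and highest; 34.0 ± 28.2, n = 7). In Δm/wt it was at 0, 0.176 and 0.992 CPM (0.354 ± 0.419, n = 8), and 3 of these embryos had no read. Every mutant embryo was below every control embryo, which was so for 9.04% of all genes tested. Klf9 fell by 6.60 ± 1.04 on the log2 scale (SE; edgeR adjusted p = 5.12e-05), and the group means differed 96.1-fold. The size of this ratio rests on the 17 reads that the 8 mutants held together. The levels of the controls themselves spread widely, from 51 reads in f/wt 5 to 679 in f/wt 6. The 3′ end in GENCODE lies 1.22 kb beyond the counted one, as described for Klf3.

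Klf4 (chromosome 4, 55527137 to 55532475, minus strand, 5 exons) had the highest mean CPM in f/wt of the 3 genes that fell. Klf3 was nevertheless higher than Klf4 in f/wt 2+3 (28.8 CPM) and in f/wt 6 (178 CPM), as was Klf9 in f/wt 2+3 (36.2 CPM). Reads of Klf3 and Klf9 beyond their counted ends are missing from this comparison. Klf4 was at 15.9, 109 and 132 CPM in f/wt (89.8 ± 42.1, n = 7). In Δm/wt it was at 0.139, 2.80 and 6.90 CPM (2.87 ± 2.45, n = 8). The groups did not overlap, and the closest values were 15.9 CPM (f/wt 2+3) and 6.90 CPM (Δm/wt 4). Klf4 fell by 4.96 ± 0.73 on the log2 scale (SE; edgeR adjusted p = 2.77e-05), with means 31.4-fold apart. In contrast to Klf3 and Klf9, a read of Klf4 was found in every mutant embryo, with 1 to 54 reads each.

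**Figure D1:**
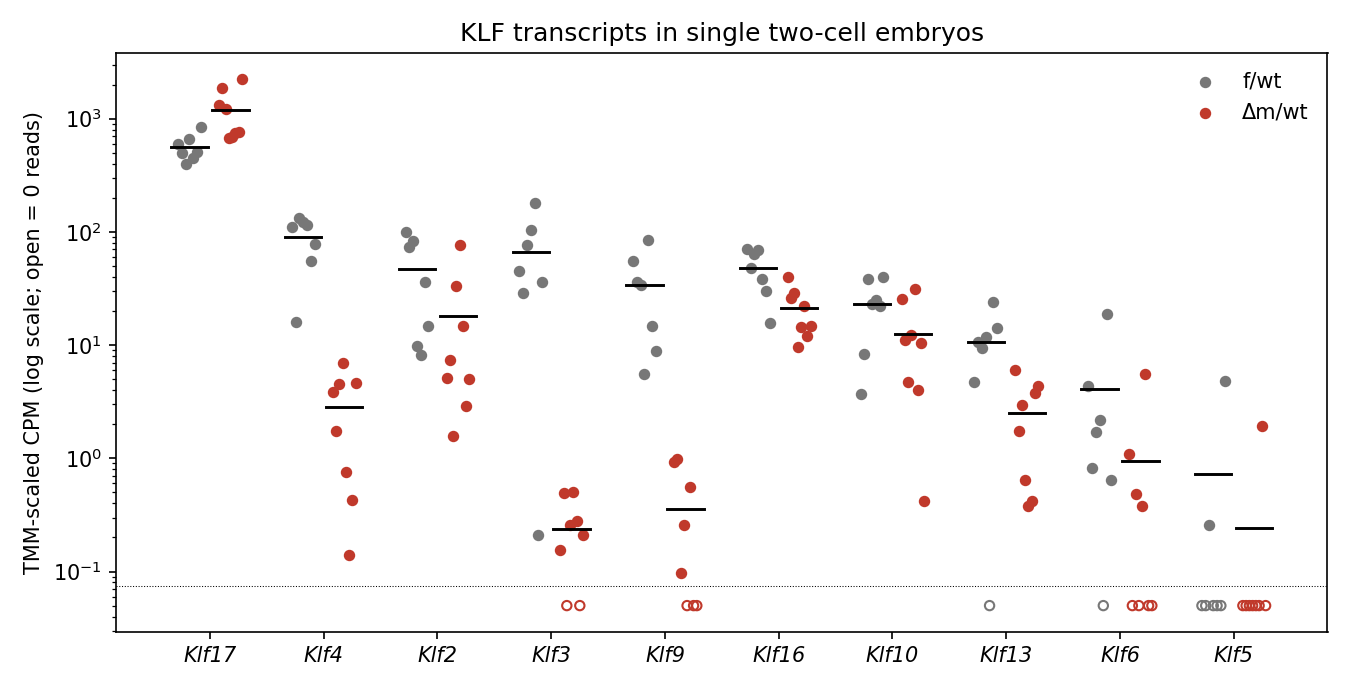
TMM-scaled CPM of the 10 KLF genes on a log axis, 1 point per sample (grey, 7 f/wt; red, 8 Δm/wt), with the group mean as a bar and samples without a read as open points below the dotted line. Klf4 and Klf9 separate the groups fully, Klf3 does so but for f/wt 7 at 0.210 CPM, and 4 Δm/wt samples of Klf17 lie above all f/wt samples.

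Klf17 (chromosome 4, 117756659 to 117765666, minus strand, 3 exons) was the most abundant of the 10 genes in every sample. In f/wt it was at 397, 505 and 838 CPM (lowest, median and highest; 565 ± 151, n = 7), and in Δm/wt at 677, 996 and 2226 CPM (1188 ± 589, n = 8). Klf17 rose by 1.07 ± 0.33 on the log2 scale (SE; edgeR adjusted p = 0.0123), or 2.10-fold between the means. The mutants fell on both sides of the highest control. Δm/wt 1, 2, 3 and 8 were at 1226 to 2226 CPM, above every f/wt sample. Δm/wt 4, 5, 6 and 7 were at 677 to 767 CPM, within the range of f/wt. The call depended on the scaling and the embryos: it was lost with library totals in place of TMM (0.71, edgeR adjusted p = 0.0585) and in embryos 4 to 8 alone (0.84, adjusted p = 0.139), and scaling to the summed reads of Hprt, Gapdh and Ppia gave 2.01. The mean TMM factor was 1.16 for the control samples and 0.897 for the mutant samples.

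The make-up of the KLF reads does not depend on the scaling. Klf17 gave 47.5% to 79.7% of the reads of the 10 genes in f/wt (63.4% ± 11.7, n = 7) and 84.7% to 98.7% in Δm/wt (94.1% ± 4.43, n = 8), so that the groups did not overlap. A share also grows when the other 9 genes fall, so it is not separate evidence that Klf17 rose. The other 9 genes together were at 201 to 450 CPM among controls (324 ± 109) and at 29.3 to 124 CPM among mutants (59.0 ± 31.3), again without overlap. The sum of all 10 was 706 to 1051 CPM among controls, against 740 to 2255 CPM among mutants, and these ranges overlapped. The number of the 10 genes with at least 1 read was 7 to 10 in f/wt and 7 to 9 in Δm/wt.

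**Figure D2:**
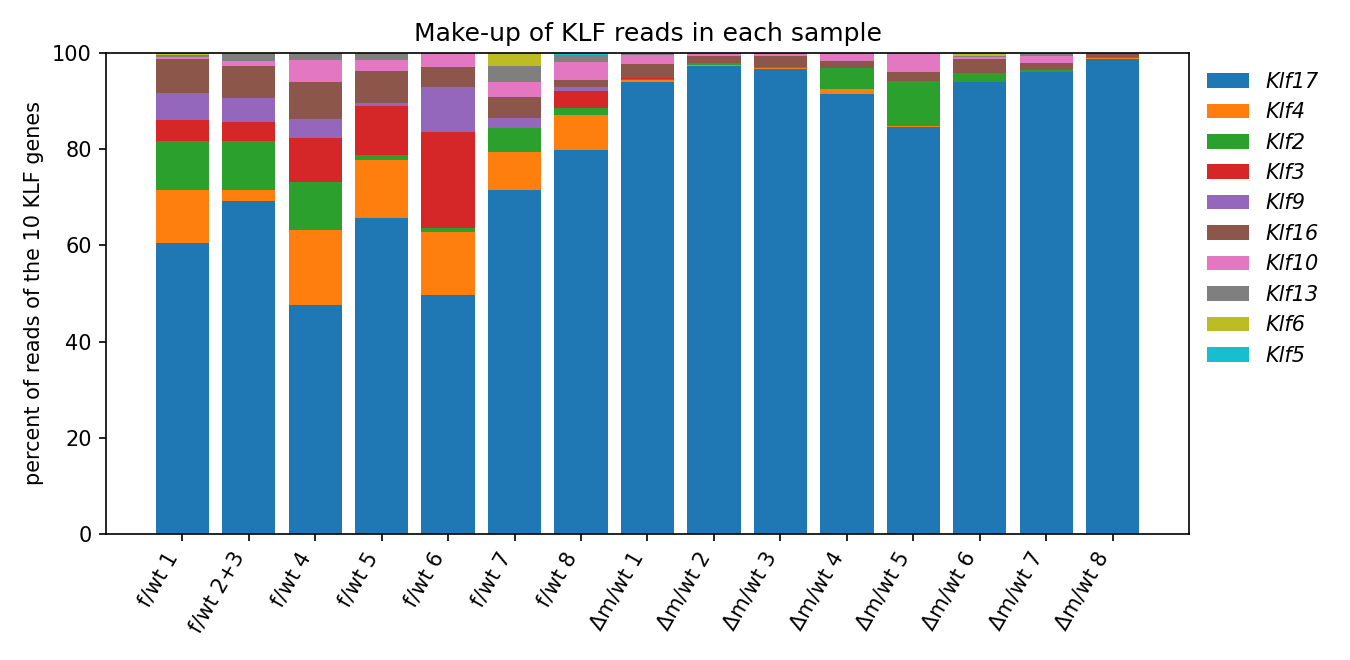
Share of each gene in the reads of the 10 KLF genes, in percent, for each of the 7 f/wt and 8 Δm/wt samples. Klf17 takes 47.5% to 79.7% in f/wt and 84.7% to 98.7% in Δm/wt, and the bands of Klf3, Klf4 and Klf9 are scarcely visible in Δm/wt.

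The other partner of Klf4 in stem cells, Klf2 (chromosome 8, 72319062 to 72321654, plus strand, 3 exons), varied between embryos of both groups. It was at 8.18, 36.2 and 101 CPM among controls (46.6 ± 38.5, n = 7) and at 1.56, 6.28 and 76.1 CPM in Δm/wt (18.2 ± 25.5, n = 8). The controls f/wt 1, 2+3 and 4 were at 74.2 to 101 CPM and f/wt 5, 6 and 8 at 8.18 to 14.8 CPM. The fold change of -1.35 ± 0.79 (SE) did not pass (edgeR adjusted p = 0.166). The call turned on 1 embryo: without Δm/wt 5, the highest mutant, the fold change was -2.21 and passed (adjusted p = 0.0252). In embryos 4 to 8 it was -0.21 (adjusted p = 0.892).

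Klf5 (chromosome 14, 99298691 to 99313409, plus strand), which in mouse is needed for the first lineages of the blastocyst, had few counted reads. GENCODE places its 3′ end 1.63 kb beyond the counted one, so reads there are missing. It had 58 reads in all, of which 37 were in f/wt 8, 18 in Δm/wt 7 and 3 in f/wt 4. The other 12 samples had none, and no difference was detectable at this depth.

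Among the broadly expressed members, Klf16 (chromosome 10, 80567121 to 80577296, minus strand) came closest to the threshold. It was at 15.6, 47.7 and 70.1 CPM among controls (47.7 ± 21.0, n = 7) and at 9.58, 18.4 and 40.3 CPM in Δm/wt (21.1 ± 10.4, n = 8), and 4 of 8 mutants lay below all controls. The fold change was -1.18 ± 0.49 (SE; edgeR adjusted p = 0.0542). Under 10 of 27 other settings it passed, among them the fits without f/wt 7 (-1.27), f/wt 8 (-1.48) or Δm/wt 1 (-1.37). The other settings where it passed kept all samples, such as library totals (-1.57), DESeq2 (-1.21), limma-voom (-1.21) and no filter on low counts (-1.32). A block for the embryo number gave -1.15 without passing. Scaling to the 3 reference genes gave -0.49 (edgeR adjusted p = 0.555).

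Klf13 (chromosome 7, 63886351 to 63938915, minus strand), the close relative of Klf9, was at 0, 10.7 and 23.9 CPM among controls (10.7 ± 7.51, n = 7) and at 0.377, 2.33 and 6.04 CPM in Δm/wt (2.54 ± 2.10, n = 8). Its fold change of -2.07 ± 0.97 (SE) did not pass (edgeR adjusted p = 0.0863). The single control without a read was f/wt 6, and without this sample the fold change was -2.29 and passed (adjusted p = 0.0317), as it did with library totals (-2.46) and with DESeq2 (-2.12), while the reference genes gave -1.19 (adjusted p = 0.376). The gene overlaps E030018B13Rik on the opposite strand, and since the strand setting of the counting is not given in the sources used here, reads of the 2 genes cannot be told apart where they overlap.

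Klf10 (chromosome 15, 38291464 to 38300711, minus strand), an early target of TGF-beta signalling, was at 3.68, 23.0 and 40.0 CPM among controls (23.0 ± 13.7, n = 7) and at 0.418, 10.8 and 31.1 CPM in Δm/wt (12.4 ± 10.7, n = 8). The groups overlapped over most of their range, and the fold change was -0.88 ± 0.73 (SE; edgeR adjusted p = 0.330). It turned to 0.27 with scaling to Hprt, Gapdh and Ppia.

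Klf6 (chromosome 13, 5861489 to 5870393, plus strand), known as an early response gene and tumour suppressor, was at 0, 1.71 and 18.8 CPM among controls (4.08 ± 6.65, n = 7) and at 0, 0.189 and 5.56 CPM in Δm/wt (0.939 ± 1.91, n = 8). No read was found in 1 control and 4 mutants. The mean of the controls rested on f/wt 7, with 179 of the 267 reads of the group. The fold change was -2.09 ± 1.35 (SE; edgeR adjusted p = 0.210). Without any 1 of f/wt 1, f/wt 7 and Δm/wt 6 the gene had too few reads to be tested.

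**Figure D3:**
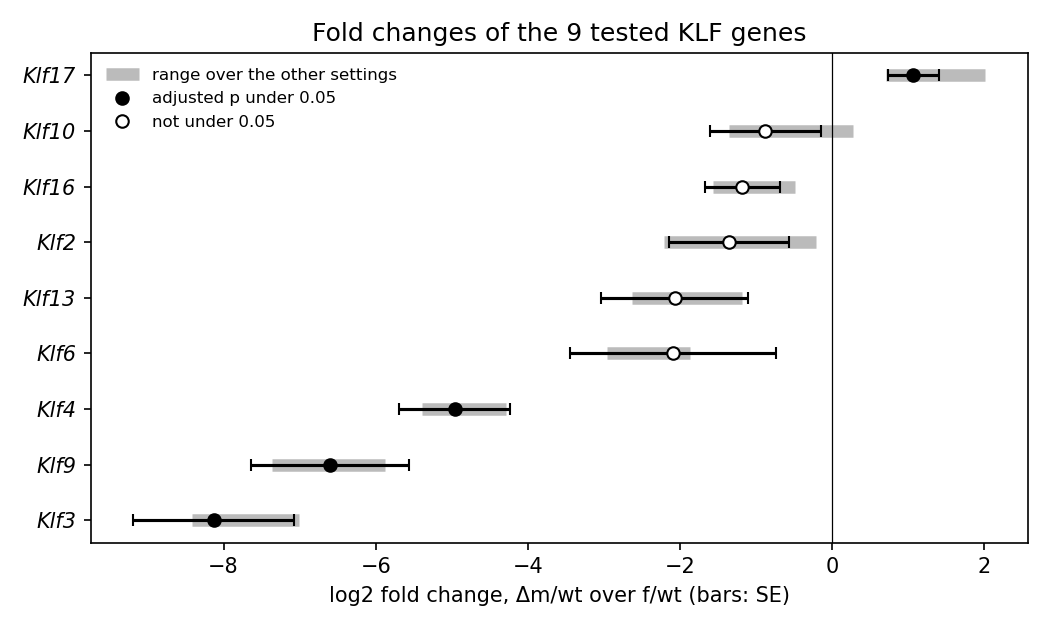
Fold change of each of the 9 tested KLF genes, Δm/wt over f/wt on the log2 scale, with its SE (black bars) and the range of the fold change over the other settings (grey bars). Klf3, Klf9 and Klf4 lie between -8.13 and -4.96 with ranges far below 0, Klf17 lies at 1.07, and the range of Klf10 crosses 0.

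Levels of different genes were compared per kb of the longest coding transcript in GENCODE. In f/wt the order by mean was Klf17 (235 CPM per kb), Klf4 (29.7), Klf2 (25.2), Klf16 (17.9), Klf3 (12.8), Klf9 (7.58), Klf10 (7.55), Klf13 (1.67), Klf6 (0.966) and Klf5 (0.216). Only Klf17 was separated from its neighbour, with a lowest value of 165 CPM per kb against a highest of 43.4 for Klf4, and the ranges of all other neighbours in this order overlapped. In Δm/wt Klf17 (495 CPM per kb), again the only gene apart from its neighbour, was followed by Klf2 (9.87), Klf16 (7.89) and Klf10 (4.09), with Klf4 next (0.946). Klf9 (0.0789) and Klf3 (0.0454) were then among the 3 lowest. The counted genes end short of these transcripts for Klf3, Klf9 and Klf5 and beyond that of Klf17, for which the last exon was drawn out to the counted end. Per kb of the counted part, a length chosen after seeing the data, Klf17 was at 158 CPM per kb among controls and at 332 among mutants, still apart from its neighbour. Among controls Klf3, at 29.0 CPM per kb, then lay between Klf4 (29.6) and Klf2 (25.6), Klf9 was at 10.4 and Klf5 at 0.419, so the order below Klf17 depended on the length used. Among mutants Klf9 (0.108) and Klf3 (0.102) had the 2 lowest means, with overlapping ranges. Klf5 (0.141) stood above them only through its 18 reads in Δm/wt 7. Because the reads gather at the 3′ end, values per kb understate long transcripts.

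Of the 7 other KLF genes listed, Klf11 and Klf8 had enough reads to be tested. Klf11, which like Klf10 is induced by TGF-beta, was at 133 ± 58.8 CPM among controls, against 172 ± 101 CPM among mutants, a difference that did not pass (0.37 ± 0.40, SE; edgeR adjusted p = 0.460). Klf8, a CtBP-binding relative of Klf3 that is named because it was the 1 gene of this list to pass, went from 18.7 ± 17.5 to 0.655 ± 0.868 CPM and fell by 4.84 ± 1.25 on the log2 scale (adjusted p = 0.00396). Klf7 had no read in any f/wt sample and reads in 4 Δm/wt samples, too few to be tested.

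The SP factors share the zinc fingers of the KLFs and bind GC boxes. Of 6 tested, 5 were lower in Δm/wt (22.8% of all genes tested fell), with a median of -2.68 beside 0.04 over all genes. Sp3 fell from 132 ± 47.1 to 18.5 ± 8.35 CPM (-2.83 ± 0.46, SE; edgeR adjusted p = 6.72e-05). Sp6 fell from 36.9 ± 47.3 to 0.442 ± 0.376 CPM (-6.39 ± 0.89; adjusted p = 1.60e-05). Sp4 (-2.74 ± 1.03; adjusted p = 0.0347) lost its call without f/wt 8 (-1.96) and without Δm/wt 2, 3, 4 or 7 (-2.66 to -2.56). Its call was also lost with the 3 sets of embryos as a term (-2.08, adjusted p = 0.215), with limma-voom (-2.45, adjusted p = 0.0686) and with a replicate block (-1.88, adjusted p = 0.292). The 3 sets were embryos 1 and 2, embryo 3, and embryos 4 to 8. The fits with these sets and with the block kept f/wt 2 and f/wt 3 as separate samples. Sp1 (-2.62 ± 0.49) and Sp2 (-2.52 ± 0.83) were the others that fell. Sp5 was at 13.9 ± 6.43 and 11.3 ± 8.36 CPM, without passing the test.

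The corepressors that KLFs recruit moved in both directions. Of 8 tested, 3 were higher and 1 lower (median 0.20), beside 21.9% and 22.8% of all genes tested. Rbbp7, a histone-binding subunit of deacetylase complexes, was among those higher (1.80 ± 0.67, SE; edgeR adjusted p = 0.0335), a call lost without any 1 of f/wt 1, 2+3, 4, 6 and 7 or Δm/wt 2 (1.66 to 1.80) and without Δm/wt 3 (0.88). It was lost too with the 3 sets of embryos as a term (1.11, adjusted p = 0.118), with limma-voom (0.79, adjusted p = 0.319) and with a replicate block (0.77, adjusted p = 0.327). Hdac1, a histone deacetylase, fell from 203 ± 49.6 to 21.9 ± 40.1 CPM (-3.21 ± 0.76, SE; edgeR adjusted p = 0.00210). Ctbp2, the partner of Klf3 and Klf8, rose from 19.2 ± 11.8 to 95.7 ± 46.7 CPM (2.32 ± 0.56; adjusted p = 0.00224). Sin3b rose from 49.3 ± 21.5 to 288 ± 91.8 CPM (2.54 ± 0.38; adjusted p = 3.35e-05), while its paralog Sin3a, the partner of Klf9 and Klf13, was at 500 ± 203 and 526 ± 210 CPM, without passing the test.

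Of the 4 acetyltransferases that serve as KLF coactivators, 2 fell and 1 rose (median -1.58), beside 22.8% and 21.9% of all genes tested. Ep300 fell from 395 ± 192 to 26.1 ± 14.8 CPM (-3.92 ± 0.44, SE; edgeR adjusted p = 1.98e-06). Its paralog Crebbp rose from 8.50 ± 4.11 to 47.2 ± 17.8 CPM (2.47 ± 0.52; adjusted p = 0.000808). The levels of these paralogs thus moved in opposite directions. Kat2b fell from 53.6 ± 33.5 to 8.01 ± 17.5 CPM (-2.73 ± 0.94; adjusted p = 0.0227), and Kat2a was at 21.2 ± 17.3 and 15.8 ± 10.8 CPM, without passing the test.

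Among 8 genes of ubiquitin ligases that act on KLF proteins, 1 rose and 1 fell (median 0.33), beside 21.9% and 22.8% of all genes tested. Vhl, whose product targets Klf4 for degradation, fell from 316 ± 65.9 to 12.5 ± 21.8 CPM (-4.66 ± 0.77, SE; edgeR adjusted p = 7.94e-05). Smurf1 rose from 15.7 ± 11.8 to 53.7 ± 16.7 CPM (1.77 ± 0.64; adjusted p = 0.0303), a call lost without a filter on low counts (1.59) and without f/wt 4 (1.75), 5 (1.61) or 8 (1.51). Smurf2 was at 199 ± 52.5 and 201 ± 55.1 CPM.

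Of 10 tested genes of pathways upstream of KLFs, 3 rose and 2 fell (median 1.10), beside 21.9% and 22.8% of all genes tested. Jak1 and Il6st, the kinase and the shared receptor chain through which LIF induces Klf4 in stem cells, both rose. Jak1 went from 67.7 ± 30.1 to 401 ± 110 CPM (2.56 ± 0.36, SE; edgeR adjusted p = 1.88e-05). Il6st went from 18.9 ± 14.3 to 83.7 ± 62.0 CPM (2.15 ± 0.69; adjusted p = 0.0166). Mef2a, of the MEF2 family that drives Klf2 in endothelium, fell from 60.1 ± 29.7 to 4.02 ± 4.63 CPM (-3.89 ± 0.74; adjusted p = 0.000318). Among the TGF-beta genes, Smad3 rose (1.28 ± 0.34; adjusted p = 0.00501) and the receptor gene Tgfbr1 fell (-1.88 ± 0.61; adjusted p = 0.0164), the latter without a call when f/wt 8 was left out (-1.32). Smad2, a transducer of TGF-beta signals, was at 133 ± 98.1 and 150 ± 77.7 CPM, without passing the test.

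The pluripotency factors that work with Klf2, Klf4 and Klf5 in stem cells were mostly without a call. Of 10 tested, 2 were higher and 1 lower (median -0.48), beside 21.9% and 22.8% of all genes tested. Nr5a2 fell from 72.3 ± 41.4 to 19.1 ± 31.1 CPM (-1.93 ± 0.69, SE; edgeR adjusted p = 0.0282), and this call was lost without f/wt 1 (-1.81) or f/wt 2+3 (-1.79). Pou5f1 rose from 51.1 ± 14.9 to 136 ± 49.8 CPM (1.42 ± 0.36; adjusted p = 0.00317). Dppa3 rose from 1570 ± 524 to 3970 ± 1510 CPM (1.34 ± 0.32; adjusted p = 0.00223). Sall4 was at 363 ± 206 and 185 ± 107 CPM, without passing (adjusted p = 0.0739). In embryos 4 to 8 alone, a fit with fewer samples, the calls of Ctbp2 (1.82), Rbbp7 (0.30), Tgfbr1 (-1.73), Kat2b (-2.19), Il6st (2.31), Nr5a2 (-1.13), Pou5f1 (1.18) and Dppa3 (0.95) were lost. Scaling to Hprt, Gapdh and Ppia ended those of Sp2 (-1.71), Sp4 (-1.17), Tgfbr1 (-0.76), Kat2b (-1.13), Nr5a2 (-0.89) and Tcstv1 (-1.40), and library totals those of Smurf1 (1.37) and Rbbp7 (1.35). The size of several changes that kept their call depended on 1 sample. Without Δm/wt 1, Hdac1 was at -4.67, Vhl at -6.01, Sp2 at -3.16, Tcstv3 at -4.66 and Tcstv1 at -3.12. Kat2b was at -4.79 without Δm/wt 5, Nr5a2 at -3.15 without Δm/wt 8 and Mef2a at -4.50 without Δm/wt 7. Sp6 was at -5.45 without f/wt 6, Tdpoz1 at -6.83 without Δm/wt 4, H1foo at 4.35 without Δm/wt 6 and Gata3 at 6.32 without f/wt 5.

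**Figure D4:**
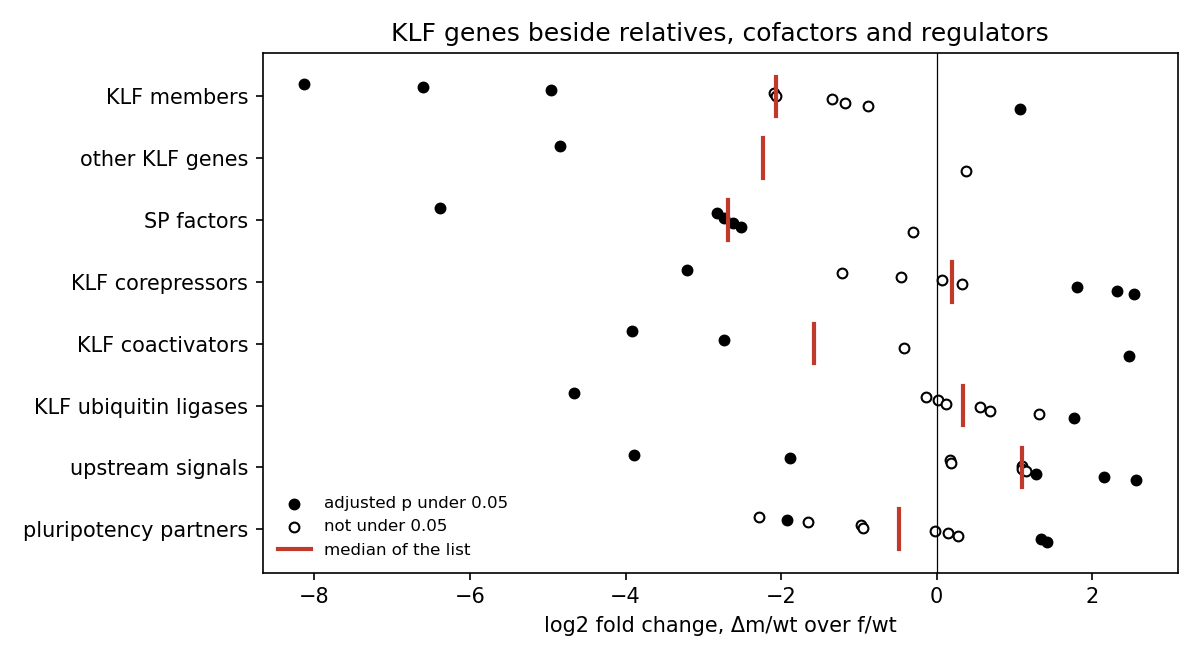
Fold change, Δm/wt over f/wt on the log2 scale, of each tested gene in 8 lists (filled, adjusted p under 0.05; open, not), with the median of each list as a red bar. The KLF genes and the SP factors have medians of -2.07 and -2.68, and the corepressors, ligases and upstream signals have medians above 0.

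Transcripts that mark the stage and other cells differed between the groups as well. Of 10 tested oocyte markers, 9 rose (median 2.63), beside 21.9% of all genes tested. The summed level of the oocyte markers was 1800 to 3640 CPM among controls, against 10600 to 28200 CPM among mutants. Zar1 (5.15 ± 0.52, SE; edgeR adjusted p = 5.94e-07), H1foo (4.95 ± 0.65) and Ooep (3.48 ± 0.51) led this list, and Nlrp5 (1.35 ± 0.58) did not pass. Of 9 tested two-cell markers 3 fell (22.8% of all genes tested did), Tdpoz1 (-6.12 ± 0.83), Tcstv3 (-3.87 ± 0.61) and Tcstv1 (-2.35 ± 0.68). These belong to families whose near-identical copies make single counts uncertain. Most of the 9 had a positive fold change without passing (median 0.19), and Zfp352 was at 119 ± 68.0 and 136 ± 157 CPM. The sums of the two-cell markers were 368 to 2470 and 82.6 to 1700 CPM, and Gm4340 had no read. The sums of the cumulus and granulosa markers were 1.49 to 11.0 CPM among controls, against 34.0 to 161 CPM among mutants. Cyp19a1 made up most of the mutant sums (0.150 ± 0.120 CPM among controls, 77.1 ± 47.1 among mutants), and Tnfaip6 (2.39 and 0.428 CPM), Runx2 (1.53 and 1.29) and Col4a1 (1.28 and 4.02) most of the control sums. Ptx3, Inhba, Foxl2, Fshr and Amh had no read and Col4a1 did not pass. Cd44 (3.89 CPM) and Vcan (0.531) had reads among mutants alone, and Has2 was at 0.0934 and 1.12 CPM, all with too few reads to be tested. Sperm markers had no read for 6 of 7 genes. The other, Prm2, was at 0.101 ± 0.268 and 1.32 ± 3.45 CPM, with at most 0.708 CPM among controls and 9.82 among mutants, and too few reads to be tested. Of 3 tested blastocyst markers 1 rose (21.9% of all genes tested did), Gata3 (4.44 ± 1.26), and Krt8 did not pass. The part of these differences in the levels of the KLF genes was not tested.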

How the data were processed

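The authors made cDNA from single embryos with an oligo-dT method and read them single-end on a HiSeq. The deposited values are raw counts per gene that the authors made with HTSeq (0.6.1) over RefSeq genes, from unique best alignments to mm10 by TopHat2 (2.0.6), as the labels and methods state. The strand setting is not given in the sources used here. The reads carried no molecular identifiers. The repeat counts were not used here.

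Of the genes with any count, the top 60% by summed count were tested (11344 of 18907, at least 316 reads in all). Tests used edgeR (4.0.16) in R (4.3.3), with quasi-likelihood fits, TMM scaling and Benjamini-Hochberg adjustment (threshold 0.05). The SE of a fold change was taken as its size over the square root of the F statistic. DESeq2 (1.42.0), limma-voom (3.58.1), other scalings, filters and sets of embryos were alternatives. The libraries f/wt 2 and 3 were compared over genes with at least 20 reads in the pair and summed. Nothing in the labels says whether embryos came from separate mothers, so p-values measure the spread between these samples.

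The KLF genes and the 12 other lists were chosen with earlier results of these data known. Named were the 10 KLF genes, Kdm1a and, of each other list, at most 3 passing genes of 10 CPM or more on average, taken by the size of the fold change, and the most abundant gene that did not pass. Klf7, Klf8, Sp1, Sp2, Rbbp7, Smad3, Tgfbr1, Gata3, Tnfaip6, Runx2, Cd44, Vcan, Has2 and Prm2 were named after their values were seen. Promoters are from RefSeq (GRCm38.p6).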

Additional observations from a re-analysis of the deposited data

Results flagged for a closer look

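In each group, the highest and lowest sample of each gene was compared with its nearest neighbour by Dixon's ratio. Of 22 groups examined, 5 held a sample far from the others, where chance gives about 1 in 20 if values are normally distributed. That share does not hold for genes with many samples at 0, such as Klf5 and Klf6. Klf2 was at 76.1 CPM in Δm/wt 5, against 33.0 CPM in the next sample. Klf5 was at 4.81 CPM in f/wt 8, against 0.256 CPM in the next control. In Δm/wt 7, Klf5 was at 1.94 CPM, and the other 7 mutants had no read. Klf6 was at 18.8 CPM in f/wt 7, against 4.39 CPM in the next control. In Δm/wt 6, Klf6 was at 5.56 CPM, against 1.08 CPM in the next mutant.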

How the results depend on the processing

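Klf3, Klf4 and Klf9 fell under all 27 alternatives run, by -8.42 to -7.01, -5.39 to -4.29 and -7.36 to -5.88 on the log2 scale. No KLF gene rose with library totals (0 genes) or in embryos 4 to 8 (0 genes), where Klf17 lost its call. With library totals 5 KLF genes fell, and with DESeq2 also 5. More of all genes fell under these settings too, 3116 and 3037 against 2583 in the fit used above. Over all genes, 2488 rose and 2583 fell, and these counts were 1892 and 3116 with library totals, 3636 and 1446 when scaled to Hprt, Gapdh and Ppia, and 1465 and 1675 in embryos 4 to 8, a fit with fewer samples. The median fold change of all genes was -0.32 with library totals and 0.86 with the 3 reference genes, against 0.04, so that directions of single genes are relative to these shifts. With these reference genes Kdm1a lost its call (-1.89, adjusted p = 0.18), as in embryos 4 to 8 (-3.79, adjusted p = 0.0701).

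Embryo numbers did not pair the samples, since correlations of same-numbered samples were -0.0743 to 0.156 and 2 of 8 numbers were closest to their own. With a replicate block 1 KLF gene rose and 3 fell, and over all genes 2592 rose and 2805 fell.

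The direction turned only for genes that had not passed. With scaling to the reference genes, Klf10 was at 0.27, Sp5 at 0.50 and Kat2a at 0.29. With library totals, Klf11 was at -0.06, Sin3a at -0.27, Smurf2 at -0.33, Smad2 at -0.14 and Zfp352 at -0.04. Without a filter, Sin3a was at -0.06 and Smurf2 at -0.13, and Smurf2 was at -0.01 with median-of-ratios scaling and with DESeq2. In embryos 4 to 8, Sp5 was at 0.10, Sin3a at -0.40, Smurf2 at -0.07, Smad2 at -0.00 and Zfp352 at -0.48. Zfp352 was at -0.46 with limma-voom and at -0.18 with the replicate block, and Krt8 at -0.30 with the block and at -0.05 with the 3 sets of embryos as a term. With single samples left out, the ranges were -0.09 to 0.23 for Sin3a (-0.08 without Δm/wt 3), -0.71 to 0.01 for Kat2a, -0.14 to 0.14 for Smurf2, -0.03 to 0.42 for Smad2, -0.36 to 0.38 for Zfp352 and -0.43 to 1.46 for Krt8. The cause of these changes was not tested.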
